A study of Capra hircus with 3 samples.

Results

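The cells described here are 394 cells of the goat hair follicle library at embryonic day 120. They carried high DCN transcript and no transcript of the collagen gene COL1A1 or of LUM. They were 394 of 6896 cells in the E120 library (5.71%, exact 95% binomial interval 5.18 to 6.29) and of 20676 cells in the series. A cell was a member when its DCN value was at least 8 after scaling its counts to 10000 per cell (CP10K), COL1A1 and LUM were both at 0, and fewer than 3 of the 5 genes ALDH1A3, NPTX2, KITLG, PRDM1 and CRABP1 had a value above 0. The members were thus chosen by measured values of DCN, COL1A1, LUM and the 5 genes, so the levels of these 8 genes in the members describe the choice and are not results.

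The study profiled single cells of fetal dorsal skin of the Northern Shaanxi White Cashmere Goat at E60, E90 and E120, with 1 droplet library (10x Genomics 3′ chemistry) per stage. Skin was dissociated whole at E60 and E90, whereas at E120 hair follicles were first picked out of collagenase-treated skin with forceps and then dissociated, so stage and dissection cannot be told apart. Each library pooled at least 2 fetuses that received no stated treatment, and the fetus of a cell is not known. The libraries held 6849, 6931 and 6896 cells, against 19705 cells in the study's own description, and between 9 and 13 cell barcodes were shared by any pair of libraries. With 1 library per stage there was no replicate and no test was possible. All intervals below are 95% intervals that cover counting error only, and cells are not replicates.

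The hair matrix is the dividing epithelium at the base of the follicle, next to the dermal papilla, and its daughter cells become the hair shaft and the inner root sheath. Sonic hedgehog, encoded by SHH, is a secreted signal made by a subset of matrix cells; it binds the receptor PTCH1, which releases SMO and activates the GLI transcription factors, and PTCH1 and GLI1 are themselves transcribed in responding cells. Decorin, encoded by DCN, is a small leucine-rich proteoglycan best known from fibroblasts, where it binds collagen fibrils, so its transcript in cells without collagen transcript is the feature that set these cells apart for description.

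The members had 4546126 unique molecular identifiers (UMIs) in all, and a median of 11238 UMIs per cell (lowest 2511, highest 28508), against 13238 in the other 6502 E120 cells. The median share of mitochondrial transcripts was 5.21% in the members and 5.27% in the others. A doublet caller marked 6 members (1.52%) and 2.20% of the other cells, and these were kept. DCN in the members ran from 8.12 CP10K in the lowest cell through a median of 29.1 to 124 in the highest. In the same collagen-negative gate at the other stages there were 0 of 6849 cells at E60, which allows a share of up to 0.0438%, and 110 of 6931 at E90 (1.59%, 1.31 to 1.91).

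The label of matrix cells was compared with marker genes. LEF1, a WNT-pathway transcription factor of the matrix, stood at 244 CPM (counts per 1000000 counts of the set) in the summed members and 183.5 CPM in the other cells, MSX1 at 295 and 249 CPM, and the hedgehog receptor gene PTCH1 at 127 and 52.6 CPM. HOXC13, a homeobox factor of the matrix and hair-forming cells, went the other way, at 154 CPM in the members and 366 CPM in the others. MSX2 was not used here. Of the fibroblast and papilla markers, several were close to 0: COL1A2 gave 20 UMIs over all members (4.40 CPM, against 31.6 in the other cells), FGF7 4 UMIs, RSPO2 2, PDGFRA 1 and APOD 1. Other dermal genes were not low: VCAN was at 70.0 CPM against 10.2, FBLN1 at 110 against 53.2 and IGFBP5 at 137.5 against 62.9, and SPARC gave 210 UMIs. PTCH1 thus went with the label by at least 2-fold, and HOXC13 went against it by at least 2-fold. LEF1 and MSX1 were higher by less than 2-fold, so they say little about the label. SHH, CXCL14 and JAG2 were not in the rule, but they were known to mark these cells when the rule was written.

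SHH transcript was concentrated in these cells, while most SHH-positive cells lay outside them. Of the members, 248 (62.9%, 58.0 to 67.7) had at least 1 SHH UMI, and they made up 39.9% (36.1 to 43.9) of the 621 SHH-positive cells of the E120 library and held 1947 of its 2858 SHH UMIs (68.1%). In the 248 positive members SHH ran from 0.386 CP10K through a median of 5.02 to 48.8, or a median of 5 and a maximum of 46 UMIs per cell. Only 46 of them rested on a single UMI, 202 had 2 or more and 71 had 10 or more. After random thinning to 5000 UMIs a cell, with 44 shallower members omitted, SHH was detected in 51.4% (46.1 to 56.8) of 350 members and in 3.23% of the other E120 cells. Endothelial cells, which should lack SHH, gave 2.16% after thinning and 1.69% before, with a median depth of 6496 UMIs. The members' share lay above the share in these cells. The source of SHH in the endothelial cells was not tested, and 30 of 354 (8.47%) were called doublets and kept. SHH was known to mark these cells when the rule was written, so its excess describes the choice. Summed over cells SHH stood at 428 CPM (409.5 to 448) in the members and 10.2 CPM in the others, a ratio of 41.8 (38.6 to 45.2).

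Detection of SHH was graded with the DCN level, on both sides of the 5-gene limit. Among collagen-negative E120 cells with fewer than 3 of the 5 genes, SHH was found in 3.01% of 2825 cells with DCN at 0, in 5.50% of 709 cells above 0 and under 2 CP10K, and in 8.06% of 248 cells from 2 to 4. The share was 35.5% of 107 cells from 8 to 16, 59.1% of 110 from 16 to 32, 74.2% of 124 from 32 to 64, and 100% of 53 cells at 64 or more (93.3 to 100). Their median depths were 10641 to 12056 UMIs in the 4 classes from 8 upward, so depth changed little along that range. Lower down they were 12100 UMIs with DCN at 0, 16728 above 0 and under 2, and 5660.5 from 2 to 4. The shares by DCN class were not thinned, so those of the lower classes also depend on depth. Cells with 3 or more of the 5 genes followed the same order at lower levels, with 12.9% from 8 to 16, 31.4% from 16 to 32, 70.5% from 32 to 64 and 78.9% at 64 or more.

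Just inside the threshold, the 73 members with 8 to 12 CP10K of DCN were SHH-positive in 30.1% (19.9 to 42.0) and had 113 CPM of SHH, 1490 of CXCL14 and 1913 of KRT35. Just outside it, 126 cells with 4 to 8 CP10K were SHH-positive in 12.7% (7.44 to 19.8), with 30.0 CPM of SHH, 1747 of CXCL14 and 3112 of KRT35. In SHH and KRT35 the members near the threshold thus lay between the cells below it and the members with the highest DCN, in which SHH reached 967 CPM and KRT35 was at 327 CPM. CXCL14 did not follow this order, since among these classes it was lowest in the members near the threshold and 2401 CPM at 64 or more. Along the whole range, in cells with fewer than 3 of the 5 genes, CXCL14 was at 626 CPM with DCN at 0. It was highest at 3204 CPM from 16 to 32. Over all collagen-negative cells with DCN of 8 or more, the share set aside for 3 or more of the 5 genes was 66.2% in the class from 8 to 16 and 26.4% at 64 or more. Of the members, 57 had none of the 5 genes, 133 had 1 and 204 had 2, and 37, 95 and 116 of these had SHH.

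**Figure D1:**
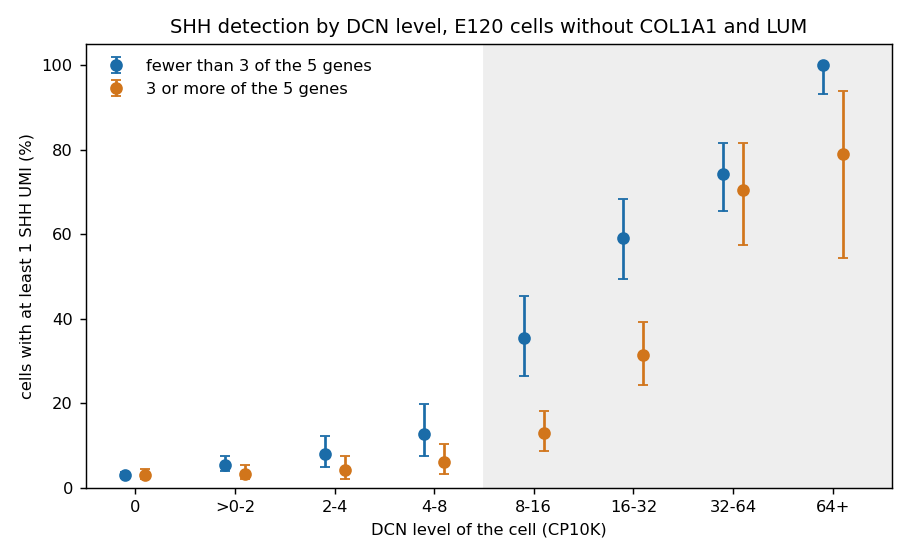
Share of collagen-negative E120 cells with at least 1 SHH UMI (vertical axis, percent, with exact 95% binomial intervals) in classes of DCN level (horizontal axis, CP10K), for cells with fewer than 3 and with 3 or more of the 5 genes. The share is 3.01% at a DCN of 0 and 100% at 64 or more for cells with fewer than 3 of the 5 genes.

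Set against all other E120 cells, the members had more transcript of SHH, CXCL14 and most cell cycle genes tested and less of hair keratin genes. CXCL14 and JAG2, like SHH, were known markers of these cells beforehand, so their excess over the other cells describes the choice. Of 5519 genes outside the rule that reached 10 CPM in either set, 428 (7.76%) were at least 2-fold higher in the members and 357 (6.47%) at least 2-fold lower, on a scale of log2(CPM + 1). Scaling by the median of ratios in place of totals shifted every log2 ratio by 0.13 and gave 304 higher and 431 lower, so the balance between the directions depends on the scaling. The median log2 ratio over the genes was 0.14.

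Of the genes with at least 100 CPM, SHH had the highest ratio. CCL20, a chemokine, followed at 196 CPM against 21.2 in the others, but only 54 members carried it and 3 of them held 31.4% of its UMIs. WIF1, a secreted WNT inhibitor, stood at 257 and 46.7 CPM, a ratio of 5.51 (5.16 to 5.88), and was detected in 57.4% of members. CXCL14, a chemokine of skin epithelium, stood at 2597 and 653 CPM (3.98, 3.90 to 4.06), with a median of 17.6 CP10K per member and a maximum of 139. It was present in 95.2% of members against 55.8% of the others, and in 94.0% against 38.8% after thinning, with 23.7% in thinned endothelial cells. The remaining genes of the 12 highest were the actin-binding protein gene CCDC88A (103 and 22.7 CPM), the endoplasmic reticulum chaperone gene FKBP11 (281 and 78.1), the matricellular gene CCN1 (341 and 106), the DNA repair gene BRCA2 (114 and 35.6), the cytolinker gene DST (104 and 32.4), the growth factor gene PDGFA (204 and 65.3), the replication helicase subunit gene MCM5 (304 and 101) and RND3 (302 and 102). These 8 genes differed by ratios of 2.98 to 4.52.

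The lowest ratios belonged to keratins and genes of differentiating keratinocytes. The hair keratin gene KRT85 stood at 407 CPM in the members and 7123 in the others (log2 ratio -4.13), KRT84 at 17.8 and 262 (-3.81), and the hair shaft gene GPRC5D at 31.2 and 543 (-4.08). The inner root sheath keratins KRT25 (139 and 1845 CPM, log2 ratio -3.72) and KRT71 (319 and 4201, -3.72) were as far below, although 1 member alone held 330 of the KRT71 UMIs. The other 7 of the 12 lowest were SBSN, a suprabasal keratinocyte gene, at 22.9 and 456 CPM, FABP3.1, the carbonic anhydrase gene CA2, the galectin gene LGALS3, EFHD1, the kallikrein-related peptidase gene KLK10 and DAPL1, with log2 ratios from -4.26 for SBSN to -3.54 for DAPL1.

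**Figure D2:**
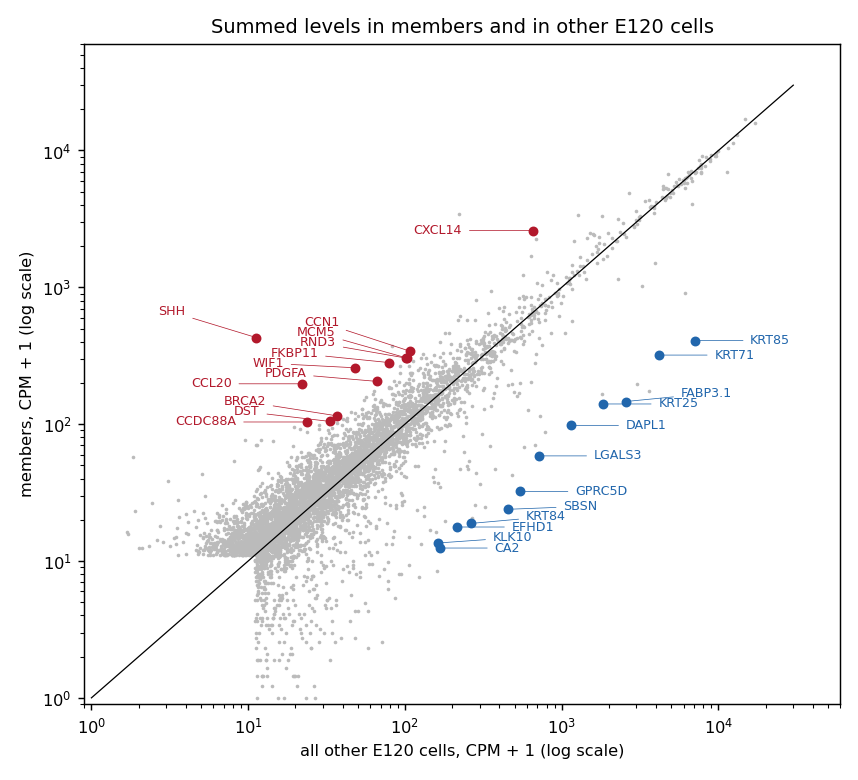
Summed level of each gene that reached 10 CPM in either set (grey) in the members (vertical axis) against all other E120 cells (horizontal axis), both as CPM + 1 on log scales with the line of equality. Red and blue points are the 12 highest and 12 lowest ratios among genes with a symbol and at least 100 CPM, leaving out the genes of the rule. Among the coloured points SHH lies farthest above the line, and KRT85, SBSN and FABP3.1 lie farthest below it.

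Further hedgehog genes were higher beside SHH. Among the listed genes that reached 10 CPM, SHH, PTCH1 and GLI2 were at least 2-fold higher and none was lower. Over all genes 7.76% were higher and 6.47% lower. PTCH1 was at 127 CPM against 52.6, a ratio of 2.42 (2.22 to 2.64). The transcription factor gene GLI2 was at 15.0 against 3.01 CPM (4.98, 3.76 to 6.52). GLI1, a transcriptional target of the pathway, was under the 10 CPM limit, at 7.04 against 1.13 CPM (6.25, 4.06 to 9.40). The transducer gene SMO was at 1.76 CPM, and the hedgehog-binding genes GAS1 and HHIP were at 0 in the members. Ligand, receptor and effector transcripts were therefore all present in the same sum of cells.

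Notch and WNT genes differed singly. Of 9 Notch genes tested, JAG2 was the only one at least 2-fold higher and NOTCH3 the only one lower, which is near the shares over all genes (7.76% higher, 6.47% lower), and the list's summed ratio was 1.05 (1.02 to 1.08). JAG2, a Notch ligand gene, was at 165 CPM in the members and 61.6 in the others, with a median of 1.11 CP10K per member and a maximum of 13.3. It was found in 66.8% of members, and in 50.6% after thinning against 32.7% of thinned endothelial cells, so JAG2 was also common in a cell type outside the follicle epithelium. The receptor gene NOTCH3 was at 20.2 and 54.0 CPM. Of 18 WNT genes, TCF7L2, ZNRF3 and WIF1 were higher and SFRP1, SOSTDC1, RSPO2 and RSPO3 lower; ZNRF3, which encodes a ubiquitin ligase that removes WNT receptors, was at 78.8 and 30.3 CPM. Of 11 BMP genes none was higher, and the pseudoreceptor gene BAMBI (201 and 640 CPM) and the antagonist gene FST (2.64 and 18.6 CPM) were lower. Among 8 FGF, EGF and PDGF genes PDGFA was higher and FGF7 and AREG lower. With 7.76% of all genes higher and 6.47% lower, the counts of these small lists are descriptions of single genes. Of 5 chemokine genes 4 were higher, but CXCL14 gave 2597 of the list's 2864 CPM, CXCL8 was in 5 members and CXCL10 in 15.

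Genes of the cell cycle were higher in most cases: 17 of 21 tested mitosis and replication genes were at least 2-fold higher and none lower, with a median log2 ratio of 1.18, against 7.76% higher, 6.47% lower and a median of 0.14 over all genes. The topoisomerase gene TOP2A was at 463 CPM against 191, the kinetochore gene CENPF at 577 against 249, and the replication helicase gene MCM7 at 323 against 128.5. The summed ratio of the list was 2.02 (1.99 to 2.06). Of 19 matrix transcription factor genes, DLX2, SOX4, TFAP2B, ETV5, IRX4 and BCL11B were higher and HOXC13 lower, against 7.76% and 6.47% of all genes. TFAP2B was at 99.4 and 31.7 CPM, and IRX4 at 29.0 and 4.31 CPM.

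Hair shaft, inner root sheath and endothelial genes were mostly lower in the members, where 6.47% of all genes were lower and 7.76% higher. Of 14 hair shaft genes 13 were lower, and CRYM, a thyroid hormone binding protein gene, was higher at 74.4 against 28.1 CPM; the summed level was 1723 CPM in the members and 16675 in the others. Of 9 inner root sheath genes 7 were lower and none higher (961 against 8846 CPM). Of 14 outer root sheath or basal genes KRT14, KRT17, KRT75, SOX9 and POSTN were lower, whereas the adhesion genes COL17A1, CDH3 and DST were higher. All 5 endothelial genes tested were lower, at a summed 43.3 CPM against 211. Of 2 myeloid genes tested both, C1QA and C1QB, were higher (the list summed to 45.5 against 13.3 CPM), with most of their UMIs in 1 member. The melanocyte list summed to 22.4 against 19.9 CPM, and its 1 tested gene was within 2-fold. These lists hold genes that the neighbouring epithelium also expresses, and the counts describe this library.

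Of 13 dermal papilla or fibroblast genes 10 were lower and VCAN, FBLN1 and IGFBP5 were higher, against 6.47% and 7.76% of all genes. VCAN, the gene of the proteoglycan versican, was at 70.0 CPM in the members and 10.2 in the others. FBLN1, an extracellular matrix gene, was at 110 and 53.2 CPM, and IGFBP5, which encodes an IGF binding protein, at 137.5 and 62.9 CPM. The summed dermal list was 394 CPM in the members, 521 in the others and 14355 in the 46 E120 cells with high DCN and COL1A1 or LUM transcript. The listed dermal genes COL6A2, COL6A3, TWIST2, CORIN and SPON1 were at 0 in the members. BGN, the proteoglycan gene closest in kind to DCN among those tested, was at 2.64 CPM in the members, 18.3 in the others and 911 in the 46 collagen- or LUM-positive cells, so DCN and BGN were not high together in the members.

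**Figure D3:**
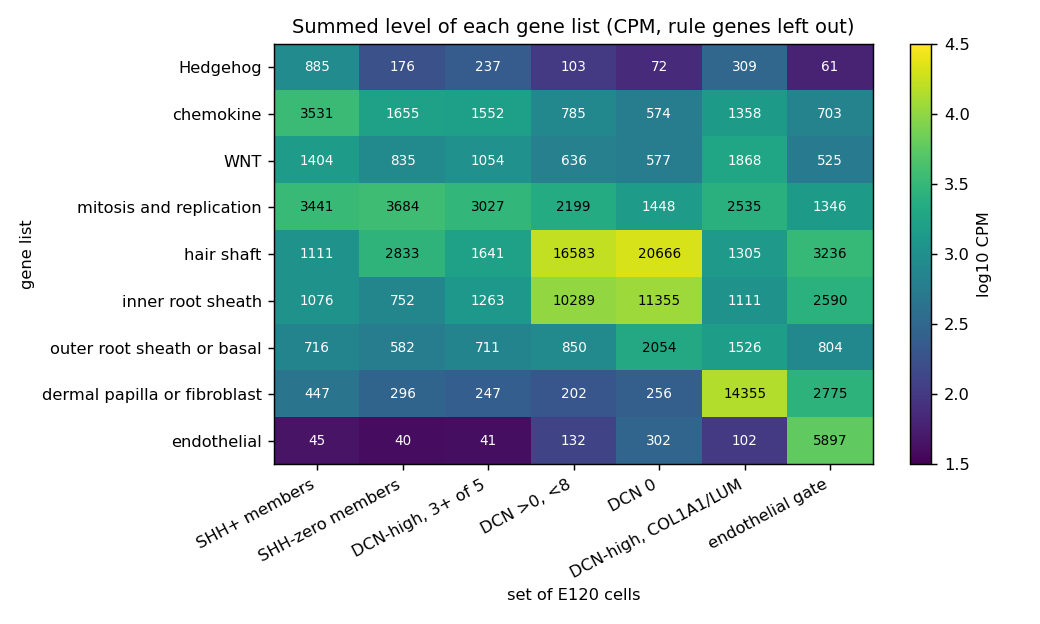
Summed level of each gene list (rows; the number is CPM and the colour its log10) in SHH-positive members, SHH-zero members, neighbouring sets of E120 cells and endothelial cells (columns), with the genes of the rule left out. The dermal sum is 447 CPM in SHH-positive and 296 CPM in SHH-zero members, against 14355 CPM in the cells with high DCN and COL1A1 or LUM.

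The nearest other cells were 449 DCN-high, collagen-negative E120 cells with 3 or more of the 5 genes (median 11911 UMIs). Members and these neighbours share the DCN gate and differ by rule in the 5 genes, but the neighbours also had less DCN. From 8 to 16 CP10K of DCN there were 210 neighbours and 107 members, and at 64 or more 19 and 53. SHH was detected in 35.5% of members and 12.9% of neighbours from 8 to 16, and in 59.1% and 31.4% from 16 to 32. The shares were 74.2% and 70.5% from 32 to 64, and 100% and 78.9% at 64 or more. Of 5313 genes 135 (2.54%) were at least 2-fold higher in the members and 35 (0.659%) lower, and the median log2 ratio was 0.04. SHH was at 428 CPM against 96.8 (4.42, 4.02 to 4.87), and was detected in 62.9% of members and 30.1% (25.9 to 34.5) of the neighbours, or 51.4% and 18.9% after thinning. The alpha globin genes HBAI (461 CPM, 28.8 times the neighbours' level) and HBAII (110 against 4.98 CPM) had the highest ratios, and 3 members held 95.5% of the HBAI UMIs. DST was at 104 against 24.9 CPM, IRX2, an Iroquois homeobox gene, at 182 against 51.4 CPM, VCAN at 70.0 against 13.4 CPM, and GATA3, a transcription factor gene of the inner root sheath, at 97.2 against 18.3 CPM. CXCL14 was at 2597 against 1412 CPM and PTCH1 at 127 against 68.5 CPM.

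The neighbours had more of other genes. FABP3.1 was at 145 CPM in the members and 438 in the neighbours, the argininosuccinate synthase gene ASS1 at 40.9 and 124, HEBP2 at 35.6 and 106, the heparan sulfate sulfotransferase gene HS3ST6 at 40.2 and 103, and HOXC13 at 154 and 367. LHX2, a progenitor homeobox gene, was at 126 and 291.5 CPM. JAG2 was also higher in the neighbours, at 233 CPM against 165, and WIF1 was close, at 219 against 257 CPM. None of 21 mitosis and replication genes and none of 10 hair shaft genes differed by 2-fold, where 2.54% of all genes were higher and 0.659% lower, so these counts do not set the lists apart. Summed over cells, SHH was thus at least 2-fold higher in the members than in these neighbours, whereas WIF1 was within 2-fold. The part of the DCN level in the SHH ratio was not tested.

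Within the members, the 248 SHH-positive cells were compared with the 146 SHH-zero cells. Their median depths were 11348.5 and 10824 UMIs, and the caller marked 5 and 1 of them as doublets. Of 5407 genes outside the rule and SHH, 182 (3.37%) were at least 2-fold higher in the SHH-positive members and 57 (1.05%) lower, with a median log2 ratio of 0.00. SHH-zero cells can include cells whose SHH transcript was not sampled, so the differences are between detected and undetected SHH. DCN, a gene of the rule, had a median of 37.0 CP10K in SHH-positive and 16.8 in SHH-zero members, so the split also follows the DCN gradient.

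WIF1, PTHLH, CCL20 and VCAN were higher with SHH. WIF1 had a median of 2.17 CP10K in SHH-positive members and was summed at 368 CPM against 57.6 in SHH-zero members, a ratio of 6.39 (5.16 to 7.98). It was detected in 71.0% against 34.2% of cells, and in 59.9% against 19.5% after thinning, where endothelial cells gave 3.60%. PTHLH, which encodes parathyroid hormone-related protein, was at 114 against 7.43 CPM (15.4, 8.67 to 30.0), in 92 of 248 against 9 of 146 cells. CCL20 was at 300 against 8.66 CPM (34.6, 20.5 to 63.5), in 48 against 6 cells; 3 cells held 31.9% of the SHH-positive sum, and without its 5 highest cells the log2 ratio was 4.13 in place of 4.96. VCAN was at 102 against 12.4 CPM, in 36.7% against 9.59% of cells. All 4 genes were thus detected in a larger share of SHH-positive than of SHH-zero members. The 3 richest cells held 23.7% of the PTHLH, 14.8% of the VCAN and 7.24% of the WIF1 sum of the SHH-positive members.

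Further genes of the 10 highest were the NF-kB inhibitor gene NFKBIA (201 against 58.2 CPM, in 56.9% against 30.1% of cells), DST (138 against 42.1), the IGF binding protein family gene IGFBP7 (219 against 67.5) and FKBP11 (367 against 124). IGFBP7 was detected in 96.4% of thinned endothelial cells, 59.0% of SHH-positive and 23.6% of SHH-zero members. CXCL14 had a median of 24.2 CP10K in SHH-positive and 9.05 in SHH-zero members (3134 against 1623 CPM; 1.93, 1.85 to 2.02). JAG2 had medians of 1.68 and 0 CP10K (191 against 117 CPM; 1.63, 1.38 to 1.94). Both marker genes were higher with SHH by less than 2-fold.

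The alpha globin genes HBAI and HBAII were also among the 10 highest and rested on 3 cells. HBAI was at 705 against 19.8 CPM, and cells with 910, 687 and 405 UMIs held 95.5% of all HBAI UMIs of the members; without them its log2 ratio was 0.14. HBAII was at 168 against 4.95 CPM and turned to a log2 ratio of -0.20 without these cells. Myeloid markers behaved likewise. The complement genes C1QA, C1QB and C1QC were higher, the list of 10 measured markers summed to 70.3 against 0.619 CPM, and 1 SHH-positive member held 77 of the 84 C1QA UMIs and 66 of the 76 C1QB UMIs. TYROBP, CD163 and MRC1 were at 0 in the members. CXCL8 was found in 3 SHH-positive and 2 SHH-zero cells, and CXCL10 in 14 and 1. The part of these few cells in the remaining differences was not tested beyond leaving out the 5 highest cells of each gene.

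**Figure D4:**
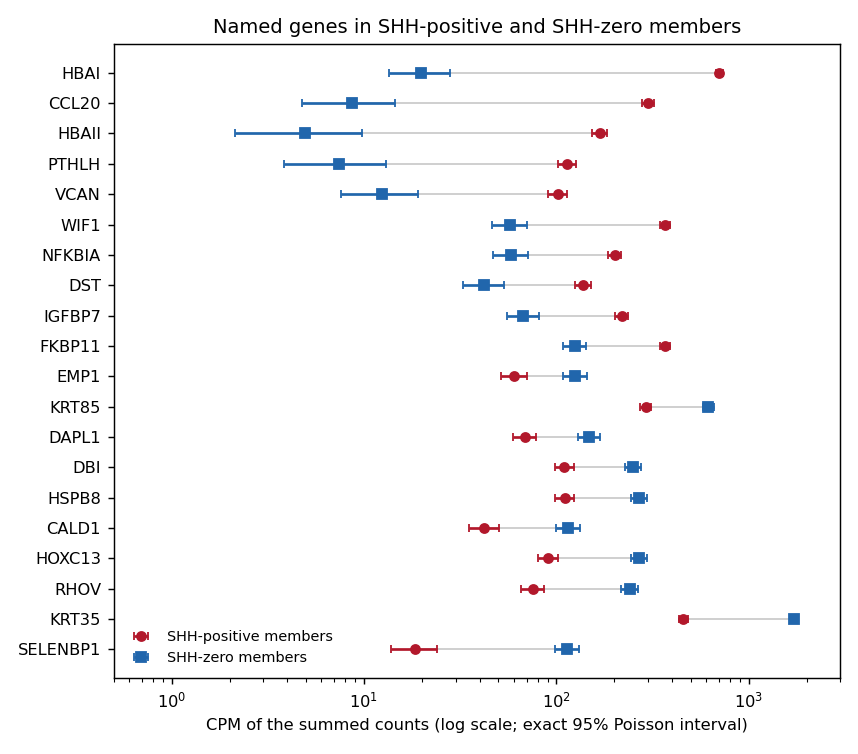
Summed level of each named gene (rows) in SHH-positive members (circles) and SHH-zero members (squares), in CPM on a log axis with exact 95% Poisson intervals. The circles of WIF1, PTHLH, CCL20 and VCAN lie to the right of their squares, and those of KRT35 and HOXC13 to the left.

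HOXC13, KRT35 and 8 further genes formed the low end of the comparison. HOXC13 was at 90.4 CPM in SHH-positive and 270 in SHH-zero members, 2.99-fold lower (2.56 to 3.50), with medians of 0.176 and 1.90 CP10K and detection in 30.0% and 55.3% of thinned cells. Thinned endothelial cells gave 16.2%. KRT35, a keratin gene of the hair cortex, was at 456 against 1714 CPM, with medians of 3.14 and 5.61 CP10K. After thinning KRT35 was detected in 78.0% of SHH-positive and 89.4% of SHH-zero members, and in 84.9% of endothelial cells, which should lack it and carried 1395 CPM. The summed KRT35 level of the SHH-positive members was thus below, and that of the SHH-zero members above, the summed level in endothelial cells. The SHH-zero sum leaned on cells rich in KRT35, with up to 95.1 CP10K against the median of 5.61, so it does not describe the typical SHH-zero member. The part of free RNA in the KRT35 difference was not tested. The selenium-binding protein gene SELENBP1 was at 18.4 against 114 CPM, RHOV at 75.4 against 241, the small heat shock protein gene HSPB8 at 111 against 269 and KRT85 at 291 against 617. Without its 5 highest cells KRT85 was within 2-fold (log2 ratio -0.71), and SELENBP1 had a log2 ratio of -1.54 at a DCN threshold of 16, against -2.56. The caldesmon gene CALD1, the acyl-CoA-binding protein gene DBI, DAPL1 and the membrane protein gene EMP1 completed the 10 lowest, with log2 ratios of -1.42, -1.18, -1.10 and -1.04. Of 10 hair shaft genes KRT35, KRT85, DAPL1 and SELENBP1 were at least 2-fold lower and none higher, against 1.05% lower and 3.37% higher over all genes, and KRT84, PADI3, GPRC5D, LY6G6D, FABP9 and CRYM were within 2-fold. The list summed to 1111 CPM in SHH-positive and 2833 in SHH-zero members, both below the 3236 CPM of endothelial cells. Of 8 inner root sheath genes none passed 2-fold in either direction, which is near the shares over all genes.

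SHH itself defines the SHH classes, so its own difference between them was fixed, and hedgehog response genes are given here. PTCH1 was at 132 against 119 CPM, a ratio of 1.11 (0.933 to 1.33), so its level did not differ beyond counting error. GLI1 was under the 10 CPM limit in both classes, at 9.56 against 2.48 CPM (3.86, 1.35 to 15.1), and rested on 28 against 4 UMIs. PTCH1 was detected in 45.4% and 38.2% of thinned SHH-positive and SHH-zero members, against 7.91% of endothelial cells.

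Of 15 WNT genes WNT10A (105 against 43.9 CPM), FZD10 (67.2 against 26.0) and WIF1 were higher with SHH and none was lower. These encode a WNT ligand, a Frizzled receptor and a WNT inhibitor. BMP2, a BMP ligand gene, was the only one of 10 BMP genes past 2-fold, at 44.7 against 13.6 CPM. NOTCH3 (11.6 against 35.9 CPM) was the only one of 9 Notch genes, and HES1, a Notch target gene, was at 145 against 274 CPM. Among 19 matrix transcription factors TFAP2B (123 against 56.3 CPM) and IRX4 (38.6 against 11.8 CPM) were higher and HOXC13 was lower. The basal keratin gene KRT14 was at 89.8 against 24.8 CPM. The growth factor gene PDGFA was at 205 against 204 CPM. With 3.37% of all genes higher and 1.05% lower, the counts of these small lists describe single genes.

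None of 22 mitosis and replication genes differed by 2-fold between the SHH classes, and the summed ratio was 0.934 (0.904 to 0.965). TOP2A was at 501 against 392 CPM and MCM5 at 295 against 320 CPM. The cyclin gene CCND1 was at 592 against 946 CPM. Over all genes 3.37% were higher and 1.05% lower, so a count of 0 of 22 is near the overall share.

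Several of the SHH-associated genes were found together in the same cells. Among SHH-positive members PTHLH was detected in 50.6% (42.9 to 58.2) of 176 WIF1-positive cells and in 4.17% (0.868 to 11.7) of 72 WIF1-zero cells, at like median depths of 11348.5 and 11298.5 UMIs. PTHLH was in 77.1% of 48 CCL20-positive and 27.5% of 200 CCL20-zero cells, with median depths of 12987.5 and 11220 UMIs. VCAN was in 65.2% of 92 PTHLH-positive and 19.9% of 156 PTHLH-zero cells. JAG2-positive cells had WIF1 in 77.6% and JAG2-zero cells in 48.2%, where depths were 11873 and 10175 UMIs. Over the 394 members, which share 1 library and differ in depth, Spearman's rho of the per-cell levels was 0.59 for SHH with WIF1, 0.54 for SHH with DCN, 0.26 for SHH with JAG2 and -0.30 for SHH with KRT35.

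**Figure D5:**
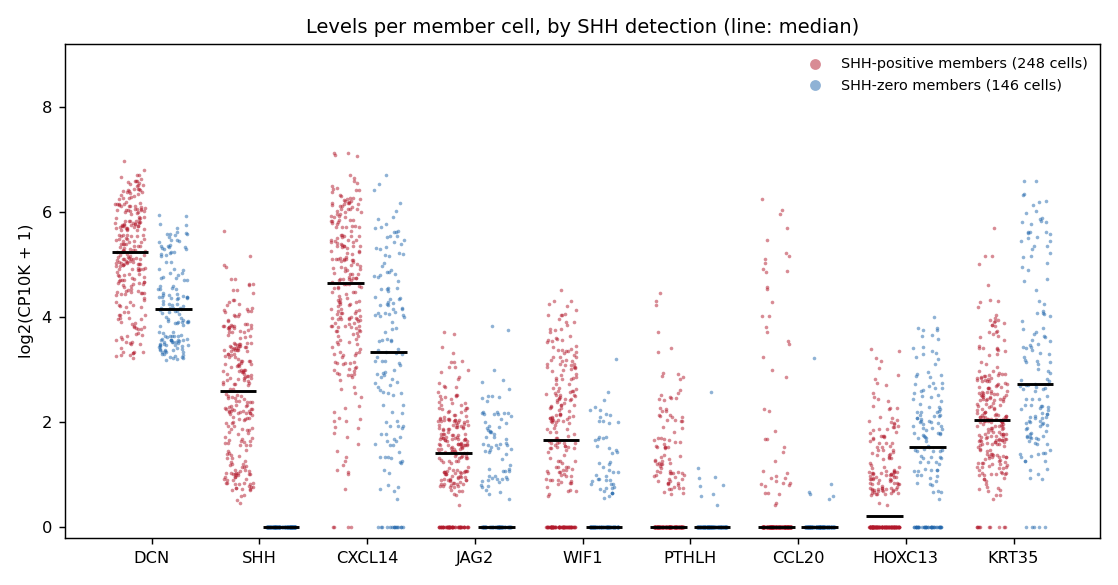
Level of 9 genes in each member, as log2(CP10K + 1), for 248 SHH-positive (red) and 146 SHH-zero (blue) members, with a line at each median. The medians of DCN are 37.0 and 16.8 CP10K and those of HOXC13 are 0.176 and 1.90 CP10K, before the log, and the cells of the groups overlap in each gene other than SHH.

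The members did not form a single cluster when E120 cells were clustered without SHH and the genes of the rule. Of 20 clusters, 1 of 364 cells held 150 members (38.1%), with 53.6% of the SHH-positive and 11.6% of the SHH-zero members. The genes leading it were SHH, CCL20, KRT8, IRX1, CXCL14, CCN2 and ADM, and members made up 41.2% of its cells. A cluster of 552 cells led by mitotic genes such as TOP2A and CCNB2 held 105 members, of which 73 were SHH-positive. Another cluster of 400 cells, also with mitotic genes such as NUSAP1 and TOP2A among its leading genes, held 24 members. Of these 1 was SHH-positive and 23 were SHH-zero. A cluster of 718 cells led by KITLG, MT3 and ALDH1A3 held 56 members and 224 of the DCN-high neighbours. The cluster led by the papilla genes FGF7, APOD and RSPO3 held 0 members. Endothelial genes such as PLVAP and PECAM1 led a cluster that held 4 members. Clusters with FCER1A and with RGS5 among their leading genes held 1 member each. The rule required no epithelial marker, so not every member need be epithelial. The remaining members were spread over other clusters, so the gate gathers cells that differ in cycle state and in SHH.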

How the data were processed

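Reads were counted per gene and cell with Cell Ranger 3.0.2, per the submitters' processing notes; the genome build is not given in the sources used here. The deposited table holds, on a natural log scale, the value ln(1 + counts scaled by the authors to 10000 per cell) for 16739 genes. Dividing each cell's scaled values by its smallest gave whole UMI counts for 100% of values (tolerance 0.01), and these were summed over cells to CPM. Of 12709 gene symbols 11897 occur in the RefSeq annotation ARS1.2. Genes without a row, such as COL3A1, MSX2 and TCHH, were not used here. A listed gene is not reported here.

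The members and lists were chosen with earlier results of these data known. Comparisons between sets of cells used log2 ratios of (CPM + 1), a 2-fold limit, exact Poisson intervals, conditional binomial intervals of ratios and Clopper-Pearson intervals of shares. No test was run, since each stage is 1 library. Named genes are the 12, 10 or 5 highest and lowest ratios of a comparison among genes with at least 100 CPM, the genes of the rule and markers, and list genes. Endothelial cells had at least 3 of 7 endothelial genes. Doublets were called with Scrublet in scanpy 1.11.5 (149 of 6896 E120 cells, 2.16%) and kept. Clusters came from Leiden at a resolution of 1 on 2000 variable genes and 30 components. The summing and ratio steps were tested on simulated data. Alternatives were other pseudocounts, filters, scalings, thresholds and cell filters.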

Additional observations from a re-analysis of the deposited data

Results flagged for a closer look

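At E90 the same gate on DCN, COL1A1, LUM and the 5 genes was passed by 110 of 6931 cells (1.59%, 1.31 to 1.91), in a library that no comparison above uses, whereas a count of 0 would allow 0.0433%. Their median depth was 3334.5 UMIs, against 11238 in the E120 members. SHH was found in 7 of them (6.36%, 2.60 to 12.7), a share close to the 6.05% of all E90 cells that had SHH (419 cells, 559 UMIs). The E90 cells that passed the gate therefore did not carry the SHH signal seen in 62.9% of the E120 members, although their depth was lower and the effect of depth was not tested. No SHH UMI was found in the E60 library.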

How the results depend on the processing

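Counts of genes at least 2-fold apart depended on the limits set for low values. For members against other E120 cells (428 higher, 357 lower) a pseudocount of 10 CPM gave 147 and 236, no filter gave 659 and 895, and a filter of 50 CPM gave 154 and 131. Weighing each cell the same gave 276 higher and 475 lower. For SHH-positive against SHH-zero members (182 higher, 57 lower) the same 3 settings gave 68 and 19, 919 and 420, and 41 and 17. A DCN threshold of 16 gave 115 lower genes, a limit of fewer than 2 of the 5 genes gave 393 and 177, and leaving out the 5 members with the most UMIs of each gene, an alternative chosen after seeing the data, gave 121 and 33. The share of members with SHH (62.9%) was 50.8% at a DCN threshold of 4, 73.2% at 16, 69.5% with fewer than 2 of the 5 genes (190 members) and 51.4% after thinning to 5000 UMIs. The cause of each shift was not tested, other than that filters and cell limits change how many genes and cells enter. Leaving out called doublets kept 388 members, and the stricter quality limit 357. The highest and lowest genes against other E120 cells and between the SHH classes were rerun one by one. Of these reruns 192 stayed within the counting interval of the main ratio, 90 moved outside it and 2 reversed. Both reversals were of HBAII, to log2 ratios of -0.20 without the 3 cells rich in HBAI and -0.16 without its 5 highest cells. Both settings were chosen after seeing the data. Other list genes, and genes of the neighbour comparison other than SHH, were not rerun. COL3A1 was not used here, so the stricter collagen gate (376 members) rested on COL1A2. Depth limits SHH-zero calls to cells with no sampled UMI. No paired analysis was possible because each stage is 1 library.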
